A study of Homo sapiens with 12 samples.

Results

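The 47 genes described here encode the proteins that copy DNA in S phase, from the factors that license origins to the polymerases, the clamp, the nucleotide enzymes and the checkpoint proteins that watch the fork. They were taken by symbol as a list of functions, with no cut on a measured value. Earlier results of these data were known when the list was chosen. The count table held 26334 gene symbols, of which 12032 averaged 10 counts or more per library and were tested, and all 47 replication genes were among them. RNA had been taken from shA673-1c cells, an Ewing sarcoma line that the study calls A673, after 0, 1, 2 or 4 h in 5 µM actinomycin D. Each time point had 3 biological replicates, sequenced as stranded libraries of polyadenylated RNA. The cells of every group were the same line kept in blasticidin and zeocyn, and the labels name no inducer, no second line and no other agent. The libraries of 0 h served as controls. No culture was kept for 4 h without actinomycin D, so time in culture and the agent cannot be told apart.

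DNA replication starts where ORC, CDC6 and CDT1 load the MCM2 to MCM7 ring onto an origin, and it begins to run when CDC45 and GINS join the ring to make the active helicase. Behind the helicase, polymerase alpha with its primase starts each strand, RFC loads the PCNA clamp, and polymerases epsilon and delta extend the strands, while RPA covers single-stranded DNA and FEN1 and LIG1 finish the Okazaki fragments. Most of these genes are targets of E2F transcription factors and are transcribed as cells enter S phase. Actinomycin D binds DNA and stops RNA polymerases, so a transcript that then becomes scarcer faster than the rest is commonly read as decaying faster. Whether decay alone made transcripts scarcer here was not tested.

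The transcripts of the replication machinery did not move as a block. Over the 4 h, 19 of the 47 fell and 18 rose (32.1% and 30.7% of all tested genes did). Another 10 did not pass the threshold, and subunits of the same machine stood among both falls and rises. POLD3, a small subunit of DNA polymerase delta, fell to 38.9% of its 0 h level, whereas POLD1 and POLD2 of the same enzyme stood at 151% and 147%. E2F2, CDT1 and MCM10 fell nearly as far, to 39.4%, 44.7% and 44.6%, while LIG1, TK1 and POLE reached 162%, 154% and 154%. These levels are CPM, counts divided by the library size after edgeR's TMM scaling, and a rise means a larger place among the RNAs of a library, since transcription was blocked and no spike-in is named.

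The measure was the slope of each gene on time in hours, on the log2 scale, from edgeR's quasi-likelihood fit with Benjamini-Hochberg adjustment over all 12032 genes and a threshold of 0.05. Of all tested genes, 32.1% fell and 30.7% rose, and of the replication genes 40.4% and 38.3%, a little more on both sides. The median standard error of the slope was 0.019 in the 47 and 0.029 over all tested genes. Its part in these shares was not tested. The median slope of the 47 was 0.021 log2 units per hour against 0.0093 over all tested genes. Without replicate 1 it was 0.013 against 0.0071, and fitted within replicates 1, 2 and 3 alone the median of the 47 lay 0.029, 0.0021 and 0.0017 above that of all genes, so the gap rested mostly on replicate 1. Their slopes ran from -0.36 for E2F2 to 0.17 for LIG1, whereas slopes of all genes ran from -1.98 to 0.48. Of the 47, 2 were among the lowest 10% of all slopes, 5 were among the highest 10%, and 29 lay in the middle 50%. In bulk RNA, fewer cells in S phase and less of a transcript per cell cannot be told apart.

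**Figure D1:**
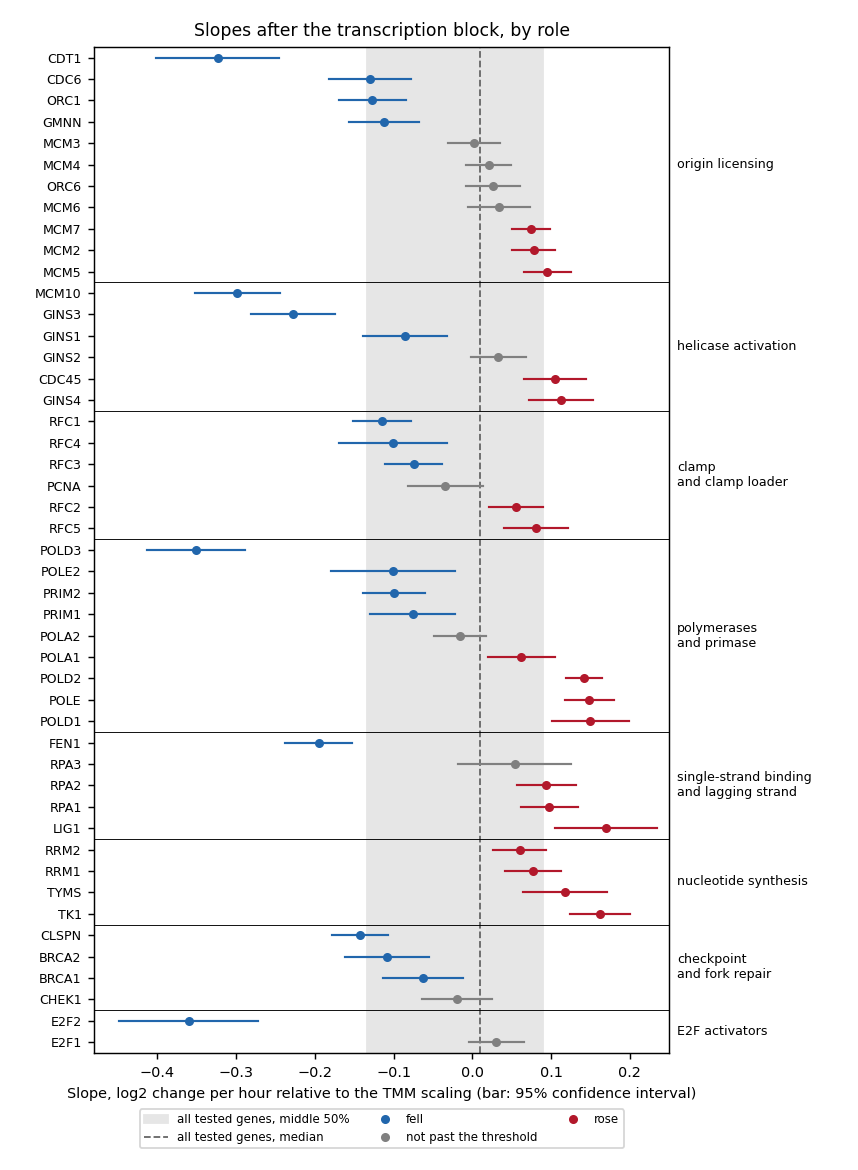
Slope of each of the 47 replication genes (log2 change per hour, edgeR, all 12 libraries) with its 95% confidence interval, grouped by role, over the middle 50% (grey band) and the median (dashed line, 0.0093) of all tested genes. Blue genes fell, red genes rose relative to the TMM scaling and grey genes did not pass the threshold; most role groups hold both colours, and 13 of the 18 red slopes lie below 0 when libraries are scaled to GAPDH and ACTB.

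Library totals ranged from 9147018 to 11194705 counts, and the 47 genes took 0.781% ± 0.043 (SD, n = 3) of the counts at 0 h and 0.756% ± 0.032 at 4 h. Transcripts known to be short-lived fell, with slopes of -1.12 for MYC, -0.89 for JUN, -0.84 for IER2 and -0.56 for EGR1, whereas GAPDH and ACTB rose with slopes of 0.15 and 0.12. Of the 12 Ewing sarcoma markers 11 were detected, from NKX2-2 at 7.08 CPM to CCND1 at 1676 CPM at 0 h. CD99, the surface marker of the tumour, had 0 counts in all 12 libraries. The same held for all 17 listed coding genes that GENCODE places on both the X and the Y chromosome, CD99 among them, so this 0 says nothing of its expression. Of the 8 markers of other cell types KRT18 stood at 307 CPM at 0 h and 318 at 4 h, ALB, MYOD1 and MYOG had 0 counts, and PTPRC, PECAM1, CDH5 and EPCAM stayed below 1 CPM on average at each time point.

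Scaling decided whether a slope was called a rise, the steepest included. LIG1 had a slope of 0.17 under TMM and 0.032 under GAPDH plus ACTB (edgeR, adjusted p = 0.519). When libraries were scaled to the summed counts of GAPDH and ACTB, which themselves rose under TMM, the median slope of all tested genes moved to -0.13, 33 of the 47 replication genes fell and 0 rose (64.2% and 0.931% of all tested genes did). No replication gene had a rise at an unadjusted p under 0.05 there. A scaling shifts the slopes of all genes by nearly the same amount, so a gene's place relative to the median of all tested genes hardly depends on it, and 24 of the 47 lay above that median and 23 below. With library totals and no TMM factors 22 fell and 13 rose (39.1% and 18.7% of all tested genes): POLA1, RFC2, RFC5, RRM1 and RRM2 lost their rise, and CHEK1, PCNA and POLA2 fell.

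The number of calls grew with time, as it would at a constant rate of change, so these counts do not show when the change came. At 1 h 0 replication genes were lower than at 0 h by edgeR (2.24% of all tested genes were) and 1 was higher (0.349% of all), namely POLE. Only 2 replication genes were lower at an unadjusted p under 0.05. At 2 h 7 were lower (19.4% of all) and 8 higher (10.8% of all), and at 4 h 19 were lower (31.6% of all) and 18 higher (28.7% of all). These comparisons share the libraries of 0 h. FEN1 was the 1 gene that departed from a straight line in time (adjusted p = 0.0362, against 2.7% of all tested genes), with a small loss up to 2 h and a larger one thereafter. That call was lost without any 1 of the replicates (adjusted p from 0.149 to 0.503 by edgeR), with no count filter and under GAPDH plus ACTB (adjusted p = 0.231). At 4 h, 18 of the 47 genes had every library below every library of 0 h (33% of all tested genes did) and 19 had every library above (30.4% of all).

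Same-numbered replicates deviated together across time points, so the fit with the replicate number as a block is given where it moves a call. It gave 20 falls and 21 rises among the 47 (34.8% and 36.2% of all tested genes), adding PCNA to the falls and E2F1, GINS2 and MCM6 to the rises. The block also moved the counts at early times, to 4 lower and 3 higher at 1 h (10.5% and 6.18% of all tested genes) and to 15 lower and 18 higher at 2 h (26.5% and 23.9% of all), and gave 20 lower and 21 higher at 4 h (36% and 36.8% of all). The genes added at 1 h were E2F2, GMNN, POLE2 and PCNA among the lower and LIG1 and POLD2 among the higher. With the block 9 genes departed from a straight line (17.2% of all), namely FEN1, E2F2, MCM10, CDT1, RRM2, POLD3, RFC4, PRIM1 and GMNN.

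**Figure D2:**
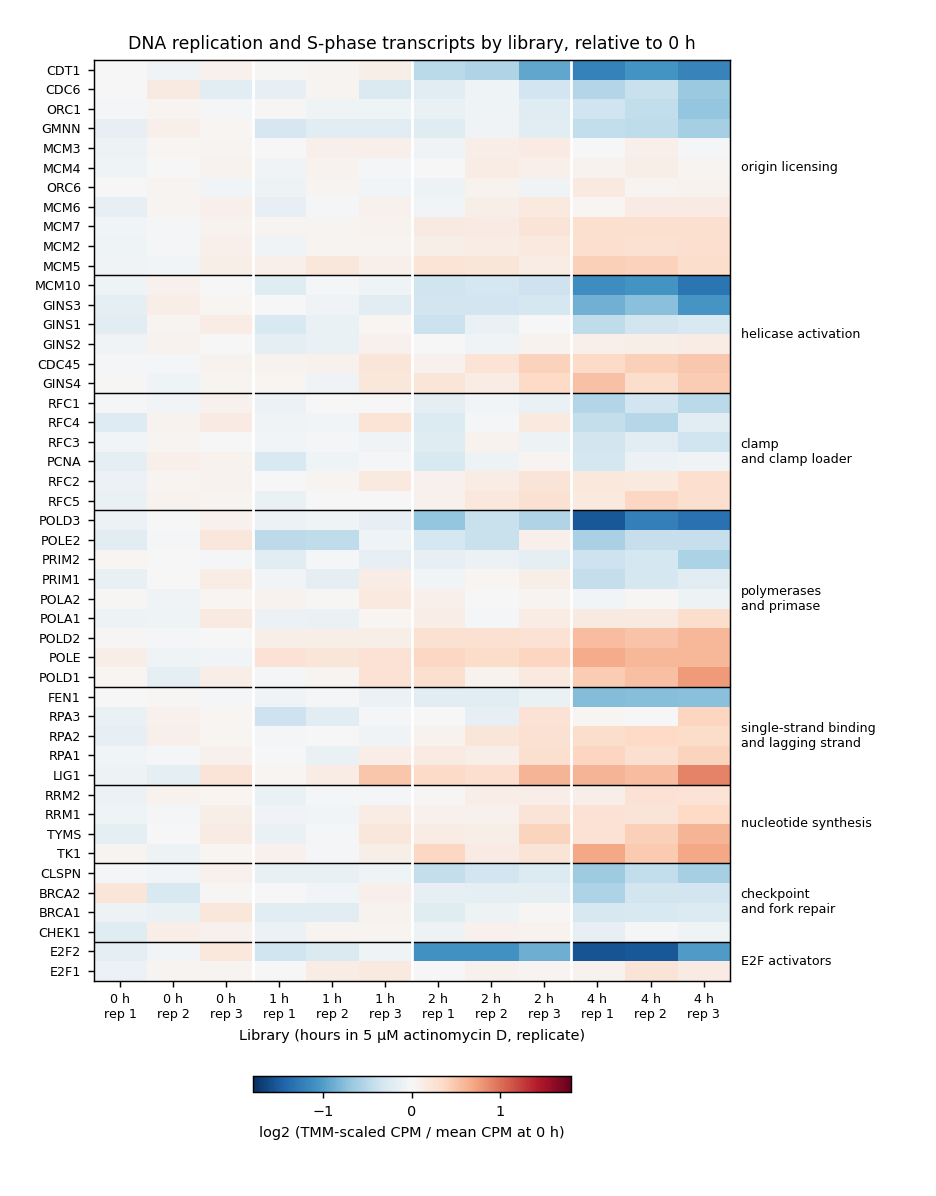
Log2 ratio of TMM-scaled CPM in each of the 12 libraries to the mean of the 0 h libraries, 1 row per gene, grouped by role and ordered by slope within a role. The columns of 1 h are nearly white and those of 4 h hold the deepest colours, from blue for E2F2, POLD3, CDT1 and MCM10 to red for LIG1, TK1 and POLE.

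Origin licensing held both falls and rises under TMM. CDT1, CDC6, ORC1 and GMNN fell, MCM2, MCM5 and MCM7 rose relative to the TMM scaling, and ORC6, MCM3, MCM4 and MCM6 did not pass the threshold. CDT1, which brings the ring to the origin, stood at 66.2, 63.8 and 70.3 CPM at 0 h, 67.5, 69.1 and 71.7 at 1 h, 47.9, 45.7 and 34.8 at 2 h and 28.8, 31.7 and 28.99 at 4 h in replicates 1, 2 and 3. Its values at 0 and 1 h overlapped, those of 2 h lay lower, and those of 4 h lower again in each library. The slope was -0.32 ± 0.037 log2 units per hour (SE, adjusted p = 1.19e-06), a half-life of 3.09 h with a 95% interval of 2.49 to 4.08 h.

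CDC6, the ATPase that works with CDT1, stood at 116, 131 and 102 CPM at 0 h, 105, 121 and 97.6 at 1 h, 102, 110.2 and 92.1 at 2 h and 80.8, 88.7 and 73.4 at 4 h. Replicate 2 was the highest and replicate 3 the lowest at each time point, and every library of 4 h lay below every library of 0 h. Its slope was -0.13 ± 0.025 (adjusted p = 2.11e-04). ORC1, the subunit of the origin recognition complex that comes and goes with the cell cycle, stood at 109, 115 and 109 CPM at 0 h, 113, 106 and 106 at 1 h, 103, 106 and 95.03 at 2 h and 86.4, 81.3 and 68.8 at 4 h, again without overlap between 4 h and 0 h. The slope of ORC1 was -0.13 ± 0.020 (adjusted p = 3.77e-05), and that of GMNN, which encodes geminin, the inhibitor of CDT1, was -0.11 ± 0.021 (adjusted p = 2.18e-04). CDT1 became scarcer relative to its inhibitor: the ratio of CDT1 to GMNN counts within a library was 0.717 ± 0.073 (SD, n = 3) at 0 h and 0.45 ± 0.029 at 4 h. ORC6, the smallest subunit of the recognition complex, had a slope of 0.026 ± 0.016 (adjusted p = 0.172).

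The 6 subunits of the MCM ring kept close together. MCM5, the subunit with the highest slope, stood at 153, 156 and 172 CPM at 0 h, 170.5, 185 and 171 at 1 h, 191, 187 and 176 at 2 h and 216, 215 and 201 at 4 h. All its libraries of 4 h lay above those of 0 h, with a slope of 0.095 ± 0.014 (adjusted p = 2.33e-05). MCM2 and MCM7 also rose, with slopes of 0.078 and 0.075, but under scaling to GAPDH and ACTB the slopes of MCM2, MCM5 and MCM7 were -0.060, -0.044 and -0.063. MCM3, MCM4 and MCM6 had slopes of 0.0022, 0.021 and 0.034 and did not pass the threshold. MCM6 rose with the replicate block (edgeR, adjusted p = 0.00474). Over 12 alternatives its adjusted p ran from 0.00408, where it fell at -0.104 under GAPDH plus ACTB, to 0.84. The ratio of MCM3 to MCM5 counts, the pair farthest apart in the ring, moved from 2.87 ± 0.14 (SD, n = 3) at 0 h to 2.22 ± 0.088 at 4 h.

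Helicase activation held some of the steepest falls beside rises. MCM10, which the helicase needs to begin unwinding, stood at 149, 165 and 157 CPM at 0 h, 135, 155 and 149.6 at 1 h, 123, 126 and 121 at 2 h and 72.3, 74.6 and 63.3 at 4 h. Each of the 3 libraries of 2 h lay below all those of 0 h and each of 4 h lower still. The slope was -0.30 ± 0.026 (adjusted p = 5.45e-08), a half-life of 3.35 h (95% interval 2.84 to 4.09 h).

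GINS is a ring of 4 subunits, and its transcripts spread widely. GINS3 stood at 38.6, 46.8 and 44.1 CPM at 0 h, 43.1, 41.4 and 37.8 at 1 h, 34.3, 33.98 and 34.6 at 2 h and 23.7, 25.6 and 20.7 at 4 h, with 4 h wholly below 0 h and a slope of -0.23 ± 0.025 (adjusted p = 8.33e-07). GINS4 went the other way, at 67.3, 63.01 and 68.9 CPM at 0 h, 68.02, 63.5 and 76.2 at 1 h, 77.3, 73.03 and 85.2 at 2 h and 95.4, 82.8 and 90.9 at 4 h. Its libraries of 4 h lay above all those of 0 h, and its slope was 0.11 ± 0.019 (adjusted p = 8.73e-05) under TMM and -0.026 under scaling to GAPDH and ACTB. GINS1 fell with a slope of -0.086 ± 0.025 (adjusted p = 0.00749), a call that was lost without replicate 2. GINS2 had a slope of 0.033 ± 0.017 (adjusted p = 0.0940) and rose with the replicate block (edgeR, adjusted p = 0.0447). Over 12 alternatives its adjusted p ran from 0.00125, where it fell at -0.105 under GAPDH plus ACTB, to 0.833. The ratio of GINS3 to GINS4 counts, which no scaling touches, was 0.652 ± 0.085 (SD, n = 3) at 0 h and 0.262 ± 0.043 at 4 h. CDC45, the partner of GINS on the ring, rose with a slope of 0.11 ± 0.019 (adjusted p = 1.18e-04), against -0.032 under GAPDH plus ACTB.

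The polymerases showed the widest gap within an enzyme. POLD3 stood at 38.6, 41.6 and 43.8 CPM at 0 h, 38.5, 39.1 and 37.4 at 1 h, 25.6, 31.3 and 28.4 at 2 h and 14.3, 17.6 and 16.3 at 4 h. The values of 1 h overlapped those of 0 h, and from 2 h on every library lay below every library of 0 h. The slope was -0.35 ± 0.029 (adjusted p = 4.06e-08), a half-life of 2.85 h (95% interval 2.42 to 3.46 h).

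POLD1, the catalytic subunit of polymerase delta, stood at 79.6, 69.8 and 84.4 CPM at 0 h, 77.1, 80.5 and 92.9 at 1 h, 95.4, 81.2 and 88.4 at 2 h and 107, 113 and 132 at 4 h. POLD2, the subunit that joins POLD1 to POLD3, stood at 182, 176 and 179.5 CPM at 0 h, 193, 192 and 192 at 1 h, 218, 216 and 215 at 2 h and 263, 256 and 269.9 at 4 h, with replicates that differed little. For both, every library of 4 h lay above every library of 0 h. Their slopes were 0.15 ± 0.023 (adjusted p = 3.24e-05) and 0.14 ± 0.011 (adjusted p = 1.82e-08) under TMM and 0.013 and 0.0037, not past the threshold, under GAPDH plus ACTB. The ratio of POLD3 to POLD1 counts was 0.485, 0.597 and 0.519 at 0 h and 0.134, 0.155 and 0.123 at 4 h in replicates 1, 2 and 3.

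Polymerase epsilon divided in the same manner on a smaller scale. POLE, its catalytic subunit, stood at 264, 229.8 and 234 CPM at 0 h, 292, 282 and 292 at 1 h, 313, 305 and 316 at 2 h and 387, 366 and 368 at 4 h. It was the 1 replication gene called at 1 h (0.25 log2 units, adjusted p = 0.0354), where every library lay above every library of 0 h, but that call was lost without any 1 of the replicates. Its slope was 0.15 ± 0.015 (adjusted p = 2.29e-07) under TMM and 0.011 under GAPDH plus ACTB. POLE2, the second subunit, fell with a slope of -0.10 ± 0.037 (adjusted p = 0.0268), a call lost without replicate 1, without replicate 2 and when the 0 h libraries were left out. Counts of POLE2 relative to POLE were 0.134 ± 0.026 (SD, n = 3) at 0 h and 0.0625 ± 0.0059 at 4 h.

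Polymerase alpha and its primase, which lay down the primers, differed less. PRIM2, the large primase subunit, and PRIM1, the small catalytic one, fell with slopes of -0.099 ± 0.019 (adjusted p = 2.05e-04) and -0.076 ± 0.026 (adjusted p = 0.0165). The call for PRIM1 was lost without replicate 2. POLA1, the catalytic subunit of the polymerase, rose with a slope of 0.062 ± 0.020 (adjusted p = 0.0125), lost without replicate 1 or replicate 2, and had a slope of -0.076 under GAPDH plus ACTB. POLA2, the accessory subunit, had a slope of -0.016 ± 0.016 (adjusted p = 0.398).

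The clamp loader RFC has 1 large and 4 small subunits, and they split as well. RFC1, the large one, stood at 154, 152 and 167 CPM at 0 h, 147, 157 and 159 at 1 h, 139.7, 153 and 145 at 2 h and 109.7, 125 and 113 at 4 h. The groups of 0, 1 and 2 h overlapped, and 4 h lay apart below them. Its slope was -0.12 ± 0.017 (adjusted p = 2.47e-05). RFC3 and RFC4 fell with slopes of -0.074 ± 0.017 (adjusted p = 0.00119) and -0.10 ± 0.033 (adjusted p = 0.0130). The call for RFC4, whose libraries of 4 h and 0 h overlapped, was lost without replicate 2.

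RFC5 stood at 70.5, 79.5 and 79.3 CPM at 0 h, 70.3, 75.7 and 76.97 at 1 h, 80.4, 86.9 and 92.6 at 2 h and 86.7, 98.5 and 93.2 at 4 h, with 4 h above 0 h in every library. RFC5 and RFC2 rose with slopes of 0.081 ± 0.019 (adjusted p = 0.00168) and 0.055 ± 0.016 (adjusted p = 0.00675) under TMM, and had slopes of -0.057 and -0.083 under GAPDH plus ACTB. The ratio of RFC1 to RFC5 counts was 2.07 ± 0.14 (SD, n = 3) at 0 h and 1.25 ± 0.032 at 4 h. PCNA, the clamp itself, had means of 436 ± 44.05 CPM (SD, n = 3) at 0 h and 389.9 ± 35.6 at 4 h and a slope of -0.034 ± 0.023 (adjusted p = 0.201). With the replicate block it fell (adjusted p = 0.00536, and 0.000174 to 0.598 over 12 alternatives).

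On the lagging strand the flap nuclease and the ligase moved apart. FEN1, which trims the flap at the end of each Okazaki fragment, stood at 158, 161 and 157 CPM at 0 h, 153, 156 and 147 at 1 h, 138, 139 and 146 at 2 h and 92.5, 93.3 and 93.9 at 4 h. Its replicates lay close together at each time point, and the groups of 0 h and 4 h lay far apart. The slope was -0.20 ± 0.020 (adjusted p = 3.72e-07), with -0.17 log2 units at 2 h and -0.77 at 4 h.

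LIG1, the ligase that seals the nick FEN1 leaves, stood at 102, 96.6 and 128 CPM at 0 h, 112, 119 and 153 at 1 h, 139, 134 and 167 at 2 h and 167, 160.5 and 202 at 4 h. Replicate 3 was the highest at each time point, and the lowest library of 4 h lay above the highest of 0 h. The slope was 0.17 ± 0.031 (adjusted p = 1.43e-04), the highest of the 47, and 0.032 under GAPDH plus ACTB. FEN1 counts relative to LIG1 went from 1.48 ± 0.23 (SD, n = 3) at 0 h to 0.534 ± 0.061 at 4 h. The subunits of RPA stayed close: RPA1 and RPA2 rose with slopes of 0.097 ± 0.017 (adjusted p = 1.04e-04) and 0.094 ± 0.018 (adjusted p = 2.36e-04), which were -0.041 and -0.044 under GAPDH plus ACTB. RPA3, the smallest, had a slope of 0.054 ± 0.034 (adjusted p = 0.178).

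The 4 enzymes of nucleotide synthesis all rose under TMM, where 30.7% of all tested genes did. Under GAPDH plus ACTB TK1 had a slope of 0.024, and TYMS, RRM1 and RRM2 had slopes of -0.020, -0.062 and -0.077. TK1, the thymidine kinase of the salvage route, stood at 154, 140.2 and 152 CPM at 0 h, 157, 147 and 159.9 at 1 h, 192, 164 and 175 at 2 h and 241, 206 and 241 at 4 h. Its libraries of 2 h and 4 h lay above all those of 0 h, and its slope was 0.16 ± 0.018 (adjusted p = 8.69e-07). TYMS, thymidylate synthase, had a slope of 0.12 ± 0.025 (adjusted p = 7.07e-04).

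RRM2, the small subunit of ribonucleotide reductase, stood at 481, 540.1 and 529.9 CPM at 0 h, 475, 508 and 503 at 1 h, 523, 562 and 560.2 at 2 h and 554, 619 and 615 at 4 h. The lowest value of 4 h was just above the highest of 0 h. RRM2 and RRM1, the large subunit, had like slopes of 0.060 ± 0.016 (adjusted p = 0.00347) and 0.077 ± 0.017 (adjusted p = 8.37e-04), and the ratio of their counts was 2.95 ± 0.19 (SD, n = 3) at 0 h and 2.79 ± 0.18 at 4 h. Both calls were lost when library totals were used without TMM factors.

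Of the 4 checkpoint and fork repair genes 3 fell and 0 rose (32.1% and 30.7% of all tested genes did). CLSPN, which encodes Claspin, the adaptor through which ATR activates CHK1, stood at 124, 123 and 134 CPM at 0 h, 115, 116 and 119.8 at 1 h, 93.7, 99.7 and 106 at 2 h and 81.7, 93.1 and 83.7 at 4 h. Every library from 2 h on lay below every library of 0 h, with a slope of -0.14 ± 0.017 (adjusted p = 1.43e-06). CHEK1, which encodes the CHK1 kinase itself, stood at 60.2, 76.5 and 74.1 CPM at 0 h, 65.2, 72.9 and 72.4 at 1 h, 65.9, 74.3 and 73.7 at 2 h and 63.3, 69.3 and 66.8 at 4 h, with overlapping groups and a slope of -0.019 ± 0.021 (adjusted p = 0.435, 95% interval -0.064 to 0.025). CLSPN counts relative to CHEK1 went from 1.82 ± 0.22 (SD, n = 3) at 0 h to 1.295 ± 0.045 at 4 h. BRCA2, which acts in the repair of broken or stalled forks, fell with a slope of -0.11 ± 0.025 (adjusted p = 0.00126), a call lost without replicate 1. BRCA1 fell with a slope of -0.063 ± 0.024 (adjusted p = 0.0303), a call lost without any 1 of the replicates.

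The E2F activators themselves, which drive the transcription of most of these genes, were apart. E2F2 stood at 71.7, 77.5 and 90.8 CPM at 0 h, 62.7, 66.6 and 75.98 at 1 h, 37.6, 37.4 and 43.7 at 2 h and 27.2, 27.8 and 39.4 at 4 h. The values of 1 h overlapped those of 0 h, and those of 2 h and 4 h lay below them in every library, with the 2 h and 4 h groups overlapping in replicate 3. The slope was -0.36 ± 0.042 (adjusted p = 1.32e-06), the lowest of the 47, a half-life of 2.78 h (95% interval 2.23 to 3.67 h).

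E2F1 stood at 111, 124 and 124 CPM at 0 h, 119, 131 and 135 at 1 h, 119, 126 and 124 at 2 h and 125, 140.2 and 132 at 4 h. The lowest library of 4 h lay just above the highest of 0 h, and the slope was 0.030 ± 0.017 (adjusted p = 0.123). With the replicate block E2F1 rose (edgeR, adjusted p = 0.0296). Over 12 alternatives its adjusted p ran from 0.0014, where it fell at -0.108 under GAPDH plus ACTB, to 0.687. The ratio of E2F2 to E2F1 counts was 0.668 ± 0.057 (SD, n = 3) at 0 h and 0.238 ± 0.053 at 4 h. The pairs whose ratios are given here were taken as the lowest and highest slope of each complex or as partners in a step, so the ratios are descriptions and carry no test.

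Half-lives of the 19 falling genes, taken as -1 divided by the slope, were under 4 h for 4 of them (E2F2, POLD3, CDT1 and MCM10), between 4 and 10 h for 10, and 10 h or more for 5. They are half-lives relative to the TMM scaling and assume a straight line, from which each of the 4 shortest departed with the replicate block (edgeR, adjusted p = 1.51e-05 for E2F2, 0.0212 for POLD3, 1.55e-04 for CDT1 and 1.44e-04 for MCM10). POLD3 had 2.85 h under TMM and 2.05 h under GAPDH plus ACTB, CDC6 had 7.66 and 3.73 h, and GMNN had 8.92 and 3.98 h. The split by length therefore depends on the scaling. The longer ones have wide intervals, as for BRCA1 at 15.8 h with 8.77 to 80.96 h. Under GAPDH plus ACTB BRCA1 had 4.95 h, below that interval, so the intervals do not cover the choice of scaling.

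Levels before the block were compared per kilobase of the canonical transcript of GENCODE version 44. At 0 h PCNA was the highest at 342 ± 35 CPM per kilobase (SD, n = 3), followed by MCM7 at 215 ± 8.1, and TYMS and RRM2 at 159 ± 18 and 159 ± 9.7. MCM3, MCM4, MCM2, POLD2 and TK1 were next, between 150.0 and 104 CPM per kilobase. At the other end stood BRCA2 at 5.93 ± 1.00, BRCA1 at 7.45 ± 0.96, POLD3 at 10.9 ± 0.69 and RPA3 at 11.6 ± 0.81. Within polymerase delta POLD2 was at 111 ± 1.7 CPM per kilobase, POLD1 at 22.7 ± 2.2 and POLD3, the falling one, at 10.9. MCM5 was lower than its partners in the ring, at 46.4 ± 3.0 CPM per kilobase against 88.7 to 215 for the other 5. The median over the 47 was 37.7 CPM per kilobase with canonical transcripts and 34.9 with the longest ones.

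Promoters were searched for E2F-type motifs because E2F factors are the known drivers of these genes. RefSeq windows from 250 bases before to 50 after the transcription start (GRCh38.p14) were matched for 41 of the 47 genes. At least 1 of TTTCCCGC, TTTGGCGC, TTTCGCGC or TTTGCCGC stood on either strand in 21 of the 41 (51.2%), against 6.86% of 9154 tested genes with a window and 3.99% of all 27303 genes with one. The motifs can overlap each other on opposite strands, and a gene was counted once. CCAAT, on either strand, stood in 26 of the 41 (63.4%) and in 43.8% of the tested genes. Of the genes with a window, E2F-type motifs stood in 9 of 18 that fell, 6 of 8 that did not pass the threshold and 6 of 15 that rose, so genes of each direction carried them. For 3 pairs of partners with unlike slopes (E2F1 with E2F2, POLE with POLE2 and CDT1 with GMNN) 1 site per gene is shown. The same is given for MCM2 and LIG1, which rose relative to the TMM scaling. The windows of E2F1 and MCM2 held 2 matches each. Sequences run 5′ to 3′ on the strand of the gene, with the motif or its reverse complement in capitals.
E2F1, chr20:33686387-33686416, minus strand: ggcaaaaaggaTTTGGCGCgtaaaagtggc
E2F2, chr1:23531257-23531286, minus strand: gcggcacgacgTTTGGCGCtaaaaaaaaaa
POLE, chr12:132687342-132687371, minus strand: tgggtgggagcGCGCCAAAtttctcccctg
POLE2, chr14:49688201-49688230, minus strand: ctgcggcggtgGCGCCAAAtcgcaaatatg
CDT1, chr16:88803743-88803772, plus strand: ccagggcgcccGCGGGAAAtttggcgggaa
GMNN, chr6:24775322-24775351, plus strand: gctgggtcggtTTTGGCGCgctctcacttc
MCM2, chr3:127598402-127598431, plus strand: cgtgaaccactTTTCGCGCgaaacctggtt
LIG1, chr19:48170440-48170469, minus strand: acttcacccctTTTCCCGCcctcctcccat
E2F1 and E2F2 carry the same TTTGGCGC, and POLE and POLE2 its reverse complement. Within each of these pairs the transcripts differed in slope. A match is a description of these letters, not a site of binding.

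The 3′ untranslated regions (3′ UTRs) were searched for short elements known to bind decay factors. ATTTA, the core of AU-rich elements, stood in 30 of the 47 (63.8%), against 74.8% of 11385 tested genes with a coding transcript. TATTTAT, which contains ATTTA, stood in 12 (25.5%, against 37.4%), and TGTANATA, the element that Pumilio proteins bind, in 10 (21.3%, against 31.4%). The median 3′ UTR had 956 nucleotides in the 47 and 1406 in those 11385 genes. Per kilobase of 3′ UTR, ATTTA stood 1.98 times against 2.31, TATTTAT 0.309 against 0.330 and TGTANATA 0.218 against 0.240. By direction, ATTTA stood in 13 of 19 genes that fell, 9 of 10 that did not pass the threshold and 8 of 18 that rose, and TATTTAT in 6, 4 and 2 of them. Median 3′ UTR lengths of these groups were 1305, 1232 and 651 nucleotides. Per kilobase, ATTTA stood 1.94, 2.30 and 1.83 times in them, and TATTTAT 0.256, 0.708 and 0.122 times. Genes that fell and genes that did not both carried TATTTAT, as these stretches of 3′ UTRs show with the element in capitals.
E2F2, position 373 of the 3′ UTR: taatgcctttgTATTTATttcaggttgag
POLD3, position 1002 of the 3′ UTR: aggcacacattTATTTATaaatggatgtt
MCM10, position 1469 of the 3′ UTR: aaagaataaagTATTTATtaataagaacc
E2F1, position 718 of the 3′ UTR: cctgggtgattTATTTATtgggaaagtga
CDC45, position 29 of the 3′ UTR: aatgaccttctTATTTATgtaactggctt
RPA1, position 2620 of the 3′ UTR: gcccaaggtttTATTTATagaggatgaaa
Positions are those of the first capital, counted from the first base after the stop codon. E2F1 holds 3 matches in its 3′ UTR of 1255 nucleotides and E2F2 1 in 3442 nucleotides, while the transcript of E2F2 fell and that of E2F1 had a slope of 0.030.

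Base composition of the coding sequence, a feature chosen after its values were seen, differed with direction. The share of G or C at the third position of codons had a median of 40.7% in the 19 genes that fell, 51.9% in the 10 that did not pass the threshold and 64.1% in the 18 that rose, against 58.1% in all tested genes. BRCA2 had the lowest share of the 47 at 26.7% and POLD1 the highest at 85.0%. Across the 47 genes Spearman's rho between slope and this share was 0.46, and across 11385 tested genes it was 0.24. Genes share libraries and base composition and are not replicates, so these are descriptions. When all tested genes were cut into 3 equal bins by this share, 13 of the 18 replication genes in the lowest bin fell and 2 rose, where 40.3% of all genes in that bin fell and 19.8% rose. In the highest bin 3 of 11 fell and 7 rose, where 25.5% of all fell and 41.8% rose. The 3 that fell there were E2F2, CDT1 and FEN1. Slopes also had negative rho with 3′ UTR length, at -0.34 across the 47 and -0.27 across the 11385 genes. The part of base composition or length in these slopes was not tested.

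Beyond the 47, a list of 80 further replication and S-phase genes was read in the same fit. All 80 were tested, and 35 fell and 21 rose under TMM (32.1% and 30.7% of all tested genes). Under GAPDH plus ACTB 65 fell and 1 rose (64.2% and 0.931% of all tested genes). The 4 steepest falls were FBXO5, the inhibitor of the anaphase-promoting complex also called EMI1, at -1.07 ± 0.062 (adjusted p = 1.62e-09), PALB2, the link between BRCA1 and BRCA2, at -0.72 ± 0.057 (adjusted p = 2.59e-08), WEE1, the kinase that restrains CDK1 and CDK2, at -0.54 ± 0.039 (adjusted p = 1.15e-08), and E2F6, a repressor of the E2F family, at -0.46 ± 0.045 (adjusted p = 1.93e-07). FBXO5 went from 69.5 ± 8.05 CPM (SD, n = 3) at 0 h to 4.397 ± 0.584 at 4 h, steeper than any of the 47. The 4 highest slopes were those of CHTF18, a subunit of an alternative clamp loader, at 0.24 ± 0.031 (adjusted p = 3.85e-06), RECQL4 at 0.15 ± 0.017 (adjusted p = 1.24e-06), POLE4, a small subunit of polymerase epsilon, at 0.15 ± 0.024 (adjusted p = 4.23e-05), and RNASEH2C, a subunit of RNase H2, at 0.15 ± 0.019 (adjusted p = 5.37e-06).

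The counts by function stand beside 32.1% falls and 30.7% rises over all tested genes. The further genes of origin licensing and firing had 9 falls and 2 rises among 15. Among them DBF4 and CDC7, the regulatory and catalytic parts of the kinase that fires origins, had slopes of -0.40 and -0.30. Those of the fork and polymerases had 6 falls and 7 rises among 23. Those of nucleotide supply had 0 falls and 4 rises among 7, with DUT, DTYMK and SAMHD1 among the rises, and 0 of the 7 fell at an unadjusted p under 0.05 either in edgeR's fit. Those of checkpoint and fork repair had 11 falls and 4 rises among 19. Those of E2F and G1/S control had 9 falls and 4 rises among 16, and every further E2F gene read (E2F3 to E2F8) fell, with slopes from -0.46 to -0.058. DBF4, CDC7, the nucleotide genes and the E2F genes of this paragraph were picked out after their values were seen.

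Some counts are less certain than others. TYMS shares 967 exonic bases with ENOSF1 and 106 with TYMSOS on the opposite strand, RPA3 shares 70 with UMAD1 and GINS2 shares 3 with GSE1, and whether strand was used in counting is not given in the sources used here. Of the 47 genes, 11 have named pseudogene copies in GENCODE, and for 1 of them, PCNA, a copy has a row of its own in the count table.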

How the data were processed

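Expression was measured by RNA-Seq in 12 libraries of shA673-1c cells, grouped by their time labels. For these libraries the authors deposited a table of whole-number counts for each gene symbol. The submitters' processing notes name FastQC, STAR and the hg19 build, and the counting tool and annotation are not given in the sources used here. The general account of this kit in the paper (Prinseq, STAR, Salmon and tximport) does not name these libraries. Each of the 12 columns was matched by sample title, and 0 were left unmatched. The list of 47 genes, the further list of 80 genes and the tests were chosen with earlier results of these data known.

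The slopes came from edgeR 4.0.16 (R 4.3.3) with TMM factors, fitted to genes averaging 10 counts or more per library. The functions glmQLFit and glmQLFTest were run on time in hours, on time as 4 groups, and on the quadratic and cubic terms of time for departure from a line. The Benjamini-Hochberg adjustment ran over all 12032 tested genes, with a threshold of 0.05. The standard error is the slope divided by the square root of its F value. Library totals of 9147018 to 11194705 counts and 3 replicates limit the precision, and intervals cover the spread between these replicates. No 2 replicates were a repeat deposit, since the lowest chi-square per degree of freedom between them was 3.20 over 12 pairs.

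Replicate numbers came from the labels. The correlation of deviations from the group means was 0.30 to 0.61 (mean 0.43) over 18 pairs of same-numbered libraries, so the numbers were taken to pair the samples. The mean of -0.21 over 36 pairs with different numbers follows from that one, since deviations from a group mean cancel within the group. In simulated data for the slope over time, run on 11985 genes, the fit recovered 25 of the 51 genes changed by 0.1 per hour, 43 of the 47 changed by 0.25 and every gene changed by 0.5 (48) or by 1 (54). Unchanged genes made up 11 of 181 calls. Far fewer genes were changed there than were called in these data, and the simulated replicates were not paired.

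Values in every library were given for the 10 lowest and 5 highest slopes past the threshold and for the lowest and highest slope of each of 8 role groups. Of the further 80 genes the 4 lowest and 4 highest slopes past the threshold were named, beside those stated in the text. Transcript features came from canonical transcripts of GENCODE version 44 on GRCh38, which were found for all 47 genes, and promoter windows from RefSeq on GRCh38.p14. Their coordinates are not those of the build named for the counts, which carry gene symbols and no coordinates. Other settings tried were DESeq2 1.42.0 for the tests and for size factors, library totals, GAPDH plus ACTB as the reference, a minimum of 1 count in all libraries together or a mean of at least 100 counts, a replicate block, leaving out each replicate, 0 to 2 h or 1 to 4 h only, and the longest transcript for levels.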

Additional observations from a re-analysis of the deposited data

How the results depend on the processing

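Over 12 alternatives for each of the 47 slopes, 489 of 564 values kept their direction and their side of the threshold, 44 kept the direction but lost the call, 16 gained a call and 15 turned. DESeq2's size factors and test and both count filters changed no slope call. Scaling to GAPDH plus ACTB gave 33 falls and 0 rises among the 47 (0 rises at an unadjusted p under 0.05), 7729 and 112 among all tested genes, and 65 and 1 among the further 80 genes. At 4 h it gave 33 lower and 0 higher, where the median change of all tested genes was -0.52 log2 units, against 0.028 under TMM. It gave 15 and 0 at 2 h, 0 higher at 1 h and 0 departures from a line. For single times and departures, shares of all tested genes are not given under other scalings, DESeq2 or left-out replicates. Such counts in this section therefore describe the 47 only. The median slope of the 47 became -0.12, and -0.018 with library totals. Slopes that turned were MCM2 (-0.060), MCM5 (-0.044), MCM7 (-0.063), CDC45 (-0.032), GINS4 (-0.026), RFC2 (-0.083), RFC5 (-0.057), POLA1 (-0.076), RPA1 (-0.041), RPA2 (-0.044), RRM1 (-0.062), RRM2 (-0.077) and TYMS (-0.020). Library totals gave 2244 rises among all tested genes, 11 among the further 80, 2 replication genes higher at 2 h and 3 departures. With 0, 1 and 2 h only, 6 replication genes fell and 9 rose, 2215 and 1447 of all genes, and 21 and 9 of the further 80, with RFC4 at 0.00095 and PRIM1 at 0.026. Fewer samples enter that fit. DESeq2's test gave 3 departures. The replicate block gave 4 lower and 3 higher at 1 h, 15 and 18 at 2 h, and 9 departures. It changed no slope call other than those of PCNA, E2F1, GINS2 and MCM6. Leaving out 1 replicate gave 0 genes higher at 1 h, 3 to 5 higher at 2 h and 0 departures (5, 3 and 6 at an unadjusted p under 0.05 by edgeR without replicate 1, 2 and 3), and took 4, 6 and 1 slope calls without replicates 1, 2 and 3. The median level at 0 h was 34.9 CPM per kilobase with the longest transcripts. The simulation recovered 25 of 51 slopes of 0.1 in size, but far fewer genes were changed there than were called here. Smaller slopes did pass here, such as 0.075 for MCM7 (edgeR, adjusted p = 3.00e-05), so the simulation sets no limit for these data.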
